A study of Mus musculus with 24 samples.

Results

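Late was compared with early in the pancreas of circadian disrupted mice, to describe how gene expression in a disrupted pancreas differed between the first and the last sampling day of a study of re-entrainment, the return of a clock to a light schedule. The members were taken by condition alone. All 12 mice labelled circadian disrupted were used, out of 24 mice in the series, and every gene was read from 1 table of 51912 genes, of which 13705 passed the filter on low counts in these 12 mice and were tested. The mice were C57Bl/6J, an inbred laboratory strain. The early groups were 3 disrupted males and 3 disrupted females of day 1, and the late groups were 3 disrupted females of day 8 and 3 disrupted males of day 9. At the late time, sex and day therefore cannot be told apart. The labels give zeitgeber times, counted in hours from lights on, of 8 h on day 1, 176 h on day 8 and 200 h on day 9, which all fall 8 h into a daily cycle. The 12 normal circadian mice, with the same 4 combinations of sex and day and 3 mice in each, served as the background of days passing. All groups shared strain, tissue and hour of the cycle. How the rhythm was disrupted, the ages and the origin of the day count were not given in the sources used here.

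The circadian clock of mammalian cells is a loop of transcription factors. A dimer of CLOCK, or its relative NPAS2, and BMAL1, encoded by Arntl, binds E-box sequences and switches on the period and cryptochrome genes, whose proteins return to the nucleus and inhibit the dimer. In a linked loop, the REV-ERB proteins of Nr1d1 and Nr1d2 repress, and the ROR proteins activate, genes with ROR elements, Arntl among them. The D-box activators DBP, TEF and HLF and the D-box repressor NFIL3 carry the rhythm on to output genes. The pancreas has such a clock in its acinar cells, which make digestive enzymes, and in its islets, and in mice the timing of meals and the daily surge of glucocorticoid hormone help to set it.

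Promoter sequence is shown for 6 clock genes as examples of the elements just named, chosen after their values were seen. Bhlhe41 and Cry1 also held an E-box in the window searched and are not shown. The sequences were taken from RefSeq promoters of the mouse build GRCm38.p6, 5′ to 3′ on the strand of the gene, and each ends at the base before the start site except for Arntl. Capitals mark the E-box CACGTG in Ciart, Per1 and Tef, which has 2 start sites in that table. They mark the D-box TTATGTAA in Per3 and the ROR element, TAGGTCA or the same element read from the opposite strand, in Nfil3 and in a 29-base stretch of Arntl.
Ciart, chr3:95882229-95882478, minus strand: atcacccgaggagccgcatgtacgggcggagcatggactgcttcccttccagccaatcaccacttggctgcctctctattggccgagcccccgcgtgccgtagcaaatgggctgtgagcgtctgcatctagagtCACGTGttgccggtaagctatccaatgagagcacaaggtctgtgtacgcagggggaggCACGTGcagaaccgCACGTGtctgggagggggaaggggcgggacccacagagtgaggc
Per1, chr11:69098699-69098948, plus strand: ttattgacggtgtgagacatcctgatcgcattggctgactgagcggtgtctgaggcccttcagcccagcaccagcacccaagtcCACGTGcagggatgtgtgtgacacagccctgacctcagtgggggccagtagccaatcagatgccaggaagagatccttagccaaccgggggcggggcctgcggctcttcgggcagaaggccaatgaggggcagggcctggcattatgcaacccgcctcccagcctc
Tef, first start site, chr15:81802423-81802672, plus strand: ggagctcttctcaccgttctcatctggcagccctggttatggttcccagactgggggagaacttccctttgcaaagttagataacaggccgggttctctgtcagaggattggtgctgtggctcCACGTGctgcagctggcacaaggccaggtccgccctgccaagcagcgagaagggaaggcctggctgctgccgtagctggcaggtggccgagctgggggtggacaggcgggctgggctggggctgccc
Tef, second start site, chr15:81811164-81811413, plus strand: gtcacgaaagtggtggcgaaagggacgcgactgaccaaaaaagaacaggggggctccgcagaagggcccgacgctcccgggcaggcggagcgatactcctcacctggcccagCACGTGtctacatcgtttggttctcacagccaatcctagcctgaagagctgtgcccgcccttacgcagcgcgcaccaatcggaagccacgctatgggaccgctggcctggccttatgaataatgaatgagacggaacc
Per3, chr4:151044666-151044915, minus strand: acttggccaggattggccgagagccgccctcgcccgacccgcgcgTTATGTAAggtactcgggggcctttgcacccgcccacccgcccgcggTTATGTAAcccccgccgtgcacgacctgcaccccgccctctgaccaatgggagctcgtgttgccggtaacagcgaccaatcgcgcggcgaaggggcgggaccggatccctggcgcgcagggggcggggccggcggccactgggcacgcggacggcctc
Nfil3, chr13:52981040-52981289, minus strand: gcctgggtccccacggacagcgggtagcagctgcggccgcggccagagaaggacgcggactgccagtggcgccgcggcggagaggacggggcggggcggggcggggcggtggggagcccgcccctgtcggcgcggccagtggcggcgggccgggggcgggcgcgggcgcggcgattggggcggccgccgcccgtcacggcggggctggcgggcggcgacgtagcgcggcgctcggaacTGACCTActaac
Arntl, chr7:113207530-113207558, plus strand: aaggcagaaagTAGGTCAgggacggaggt

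The 3 E-boxes of Ciart, a repressor of the CLOCK and BMAL1 dimer, began 116, 58 and 44 bases before its start site, and that of Per1 began 166 bases before. In Tef they began 127 and 138 bases before the respective start sites. The D-boxes of Per3 began 205 and 158 bases before its start site, the ROR element of Nfil3 began 12 bases before, and that of Arntl began 31 bases after. Windows of 300 bases, from 250 before to 50 after the start site, matched 10246 of 13702 symbols tested. They were searched on both strands for CACGTG, for TTATGTAA or TTACGTAA, and for TAGGTCA, none of which overlaps another. The E-box was present in 4 of the 9 matched genes of the clock list high around zeitgeber time 8, namely Bhlhe41, Ciart, Per1 and Tef, and in 11.7% of all tested genes with a window. A match describes letters in a window and is not evidence of a bound site.

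The 12 libraries held 31325543 to 62390408 counts, with a median of 37092668.5. Early male 3 with 59811012 counts and late female 3 with 62390408 were by far the deepest. The labelled tissue was borne out by 36 acinar enzyme genes, which summed to between 773400 and 903300 CPM (counts scaled to a common library size) in each disrupted mouse. Early female 1 stood apart in markers of other tissue. Its lymphocyte genes summed to 185.2 CPM, its adipocyte genes to 180.0 CPM and its macrophage genes to 132.5 CPM, against 5.68 to 72.04, 44.4 to 106.4 and 47.5 to 88.4 CPM in the other 11 disrupted mice. Late male 1 and late female 1 were next for lymphocyte genes, with 72.04 and 65.39 CPM. The fits below that leave out early female 1 and late female 1 together keep late male 1. In bulk tissue, fewer cells of a type and less RNA per cell cannot be told apart.

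Of the 13705 genes tested, 1356 were called, which is 9.89%, with 735 higher in late mice (5.36%) and 621 lower (4.53%). A gene is called when its adjusted p, from edgeR's quasi-likelihood test with sex as a block and Benjamini-Hochberg adjustment over all genes tested, is under 0.05, and every adjusted p given here is of that kind. Most called changes were small. The median called gene differed by 0.46 on the log2 scale, 836 differed by less than 1.5-fold, 296 by 1.5-fold to 2-fold and 224 by more than 2-fold, of which 103 were higher and 121 lower. Only 57 passed 4-fold. The 6 early and the 6 late mice did not overlap in 637 of the called genes, against 704 genes without overlap among all genes tested (5.14%). Under upper quartile scaling, which moved the median of all genes from -0.01 to -0.05 on the log2 scale, 1354 genes were called but 39.4% of them were higher, in place of 54.2%, so the balance of rises and falls depends on the scaling. Without the deepest libraries, early male 3 and late female 3, the count was 815, with 466 higher and 349 lower.

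**Figure D1:**
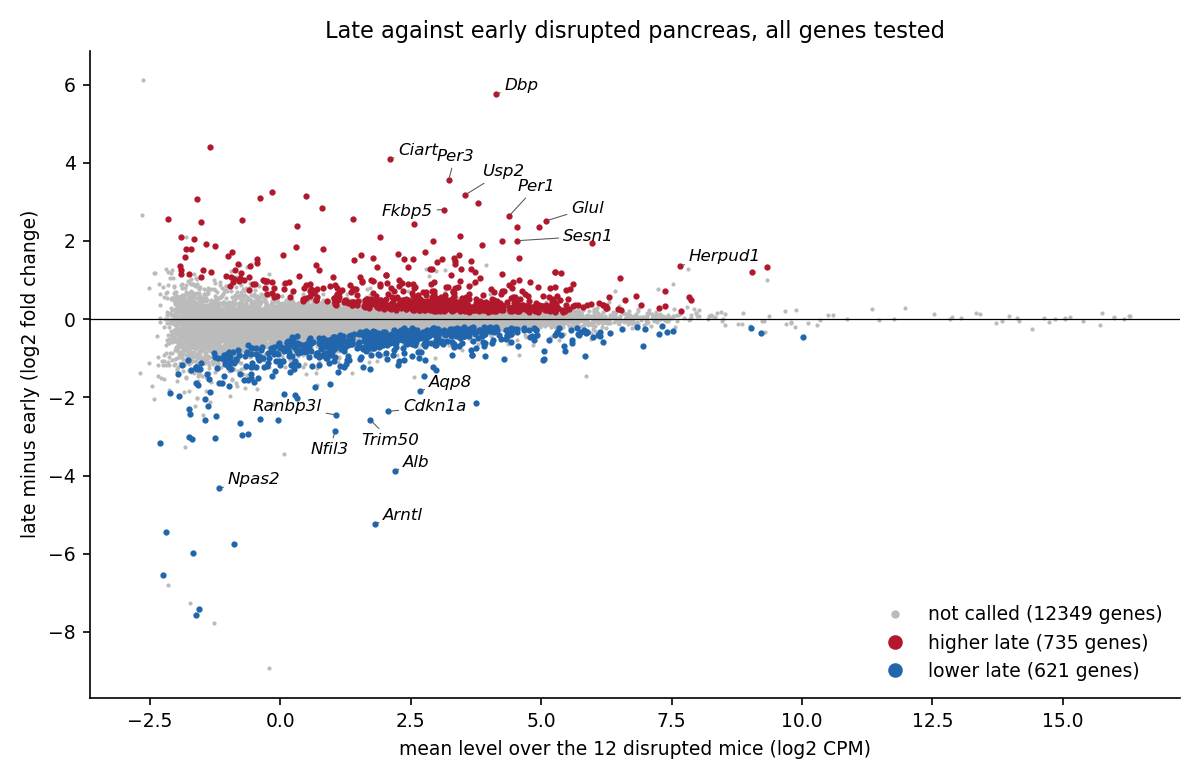
Each point is 1 of the 13705 genes tested, with its mean level over the 12 disrupted mice in log2 CPM on the horizontal axis and its late minus early log2 fold change on the vertical axis, and called genes are coloured. Dbp at 5.75 and Arntl at -5.24 mark the extremes among clock genes, while most of the 1356 called genes lie within 1 unit of 0.

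Clock genes moved far, in both directions. All 10 measured genes of the list that is high around zeitgeber time 8 rose, where 5.36% of all tested genes did, with log2 changes of 1.91 to 5.75 and a median of 2.80. Their summed level ran from 25.9 to 45.3 CPM in the early mice and from 212 to 264 CPM in the late ones. Of the 6 genes that are low at that hour, 4 fell, where 4.53% of all tested genes did, and the median of the list was -1.89. All 10 of the first list and at least 4 of the second were called with any 1 mouse left out. Bhlhe41 passed the low-count filter through the late mice alone, and Arntl and Npas2 through the early mice alone. These genes therefore had to differ. The median over all tested genes was -0.01.

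Among the D-box activators, Dbp (ENSMUSG00000059824, chr7:45705088-45710203, plus strand) differed most. In the 6 early mice Dbp stood at 0.280, 0.590 and 0.969 CPM at the lowest, the median and the highest, and in the 6 late mice at 21.2, 34.7 and 47.3 CPM. No late mouse came near an early one, and the log2 change was 5.75 ± 0.21 (adjusted p = 7.88e-09). Tef went from 7.61, 10.0 and 12.8 CPM to 48.7, 51.8 and 57.8 CPM, a change of 2.35 ± 0.11 (adjusted p = 3.61e-09), and Hlf from 0.250, 0.347 and 0.628 CPM to 1.63, 1.83 and 2.81 CPM, a change of 2.37 ± 0.19 (adjusted p = 4.39e-07). Neither overlapped between early and late mice. Nfil3, the repressor that competes for the same D-box, moved the other way, from 1.62, 3.85 and 4.76 CPM early to 0.423, 0.481 and 0.533 CPM late. Its log2 change was -2.87 ± 0.25 (adjusted p = 4.41e-06), and the lowest early mouse was above the highest late one.

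The period genes encode the inhibitors of the CLOCK and BMAL1 dimer. Per3, whose upstream window held 2 D-boxes, was at 1.25, 1.39 and 1.91 CPM in early mice and 15.1, 17.1 and 20.6 CPM in late mice at the lowest, the median and the highest. The log2 change was 3.56 ± 0.11 (adjusted p = 1.25e-12), and the early mice all lay below the late ones. Per2 went from 1.83, 2.98 and 5.40 CPM to 22.4, 24.5 and 27.5 CPM, with a log2 change of 2.97 ± 0.23 (adjusted p = 2.29e-05). Per1, which glucocorticoid also induces, went from 3.31, 6.24 and 8.68 CPM to 31.9, 33.5 and 43.0 CPM, with a log2 change of 2.64 ± 0.14 (adjusted p = 1.44e-07). In each of the 3 genes early and late mice were fully separated. Of the cryptochromes, Cry2 rose from 3.58, 4.34 and 5.31 CPM to 11.5, 11.8 and 15.2 CPM, by 1.55 ± 0.10 (adjusted p = 1.83e-08). Cry1 was at 1.21, 2.23 and 4.95 CPM early and 2.42, 3.34 and 4.37 CPM late, with overlap, and its change of 0.26 ± 0.34 did not pass (adjusted p = 0.697).

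Further repressors rose as well. Ciart, the gene with 3 E-boxes, went from 0.314, 0.416 and 0.800 CPM to 5.41, 7.60 and 11.5 CPM, and its log2 change was 4.09 ± 0.20 (adjusted p = 1.64e-08). Bhlhe41, which like Bhlhe40 encodes an E-box repressor, went from 0.148, 0.240 and 0.576 CPM to 1.35, 2.14 and 3.92 CPM, a change of 3.15 ± 0.21 (adjusted p = 6.42e-08). Both were separated between early and late mice, as was Bhlhe40, which went from 2.36, 3.09 and 3.54 CPM to 5.83, 7.81 and 9.41 CPM with a change of 1.33 ± 0.13 (adjusted p = 1.14e-05). Nr1d2 rose by 2.34 ± 0.26 (adjusted p = 0.00041), from 3.78, 7.51 and 11.5 CPM to 36.8, 38.9 and 41.9 CPM. Nr1d1 was at 2.11, 5.99 and 10.0 CPM in early mice and at 17.0, 23.1 and 29.6 CPM in late mice. Its log2 change was 1.91 ± 0.40 (adjusted p = 0.0163), and the groups did not overlap.

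The activators fell. Arntl (ENSMUSG00000055116, chr7:113207465-113314126, plus strand), which encodes BMAL1, was at 4.89, 6.85 and 8.04 CPM in early mice and at 0, 0.222 and 0.261 CPM in late mice, so every early mouse held a clear signal where 1 late mouse held none. The fitted log2 change was -5.24 ± 0.26 (adjusted p = 1.73e-08). Npas2 was at 0.474, 0.798 and 1.03 CPM early and at 0, 0.0274 and 0.0907 CPM late, with a fitted change of -4.33 ± 0.41 (adjusted p = 2.79e-06), and the groups were separated. Arntl and Npas2 passed the low-count filter through the early mice alone, so a difference was given by the filter. Clock fell less, from 16.4, 17.6 and 22.8 CPM to 7.49, 11.9 and 16.1 CPM, by 0.69 ± 0.16 on the log2 scale (adjusted p = 0.0195), and its groups came close without overlap.

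Of 10 other measured clock genes, Cry2 and Bhlhe40 were called, and the count was 4 without late female 3. The remaining 8 had log2 changes between -0.88 (Fbxl21, a ubiquitin ligase subunit for cryptochromes) and 0.34 (Csnk1e, a kinase of the period proteins), all with overlapping groups. The smallest of their adjusted p was 0.0569, for Btrc, a ubiquitin ligase subunit for the period proteins. Csnk1d had a change of 0.17 ± 0.06, Rora of 0.24 ± 0.11, Timeless of -0.52 ± 0.30 and Arntl2, a relative of Arntl, of -0.05 ± 0.12. Reads of genes that overlap another gene cannot be assigned with certainty, since the strand setting is not known. Dbp overlaps Sphk2, Nr1d1 overlaps Thra and Per3 lies on the same strand as an overlapping gene, Camta1.

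**Figure D2:**
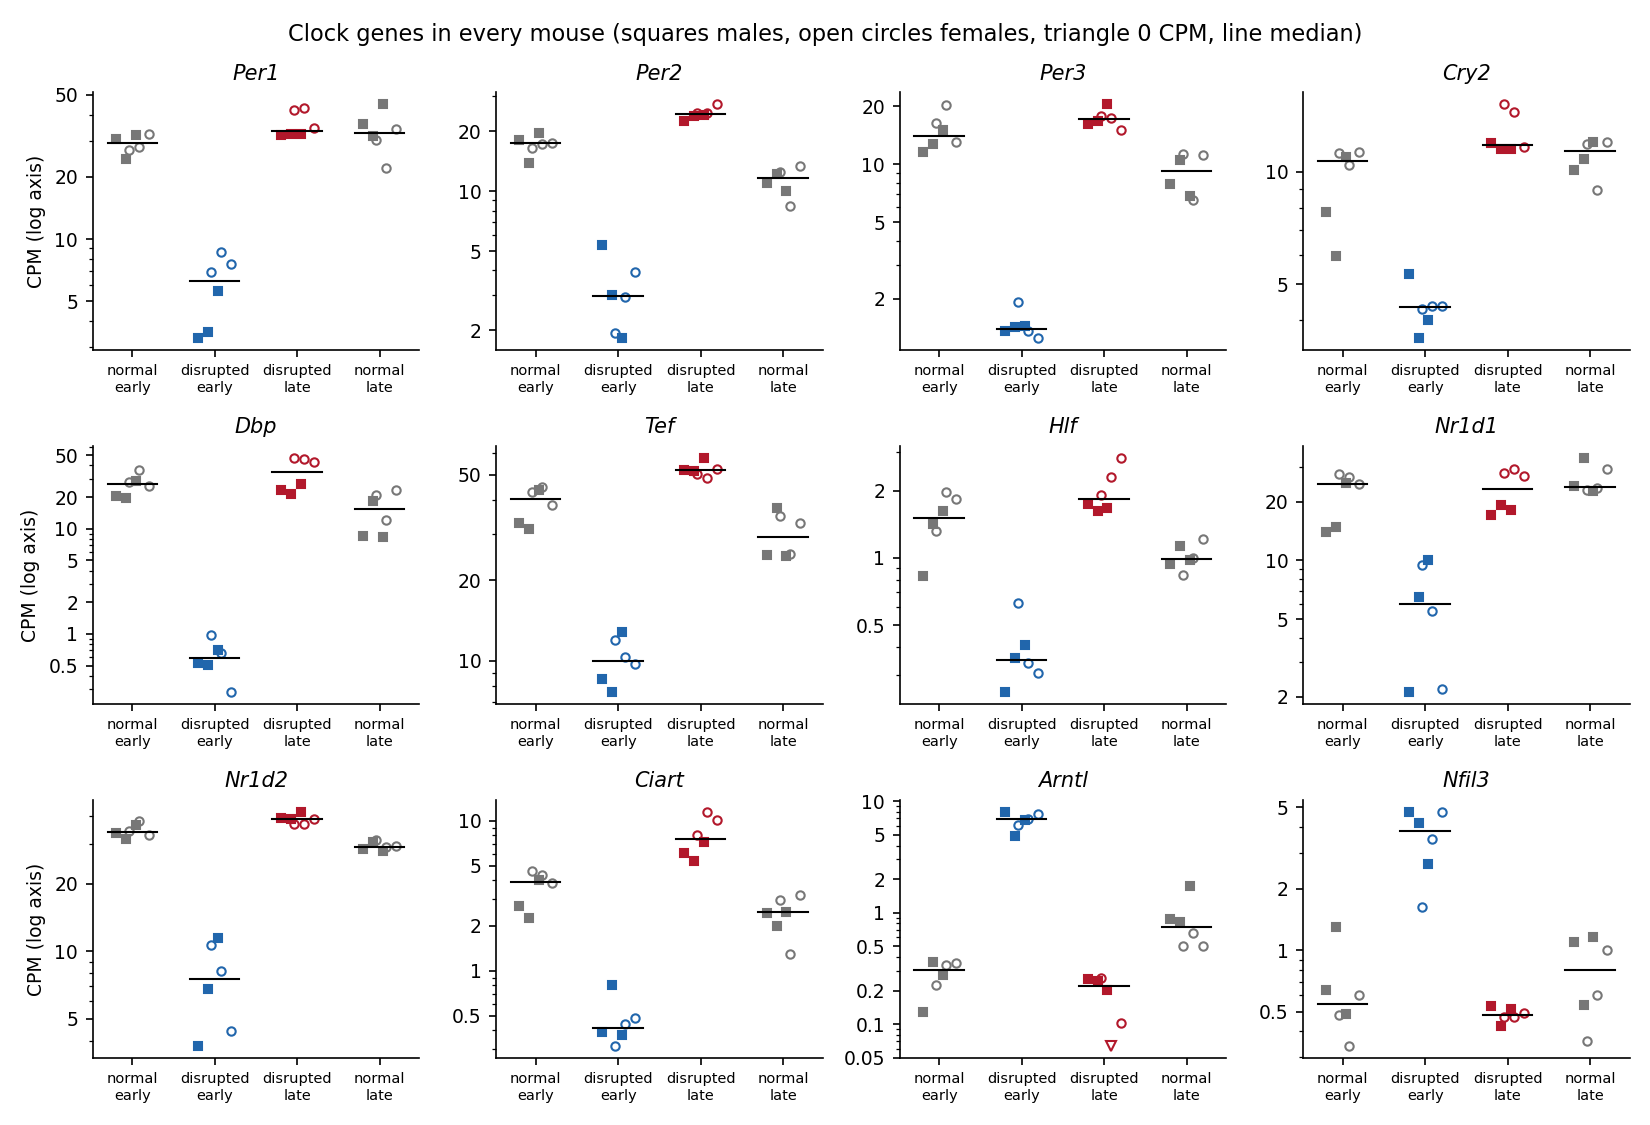
CPM of 12 clock genes in every mouse on log axes, in normal circadian and disrupted groups at the early and the late time, with squares for males, open circles for females, triangles for mice at 0 CPM and a line at the median. Early disrupted mice lie below all others for genes such as Dbp and Per3 and above all others for Arntl and Nfil3.

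Set against the normal circadian mice, early disrupted mice lay outside their range for most of these clock genes, and late disrupted mice lay inside it or beyond its other end. In 9 of the 10 genes high around zeitgeber time 8, all 6 early disrupted mice were below the lowest of the 12 normal circadian mice. The exception was Bhlhe41, where 5 early mice were below and early female 1 was inside. In late mice, none of these genes had a mouse below the normal range, and Per1 and Nr1d1 had all 6 mice inside it. Late mice were above it in all 6 for Per2, Ciart and Tef, in 4 for Nr1d2, in 3 each for Dbp and Bhlhe41, in 2 for Hlf and in 1 for Per3. For Tef the normal range was 24.6 to 45.05 CPM, where late disrupted mice ran from 48.7 to 57.8 CPM. For Ciart the normal range was 1.28 to 4.62 CPM and the late disrupted mice ran from 5.41 to 11.5 CPM. Arntl, Npas2 and Nfil3 were above the normal range in all 6 early disrupted mice. In late mice Npas2 and Nfil3 were inside it and Arntl was below its lower end, 0.128 CPM, in 2 mice.

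Outside the clock lists, the named rises were led by Usp2 (chr9:44067021-44095627, plus strand), a deubiquitinase with a strong daily rhythm in many tissues. Usp2 was at 1.96, 2.18 and 3.11 CPM in the early mice and 16.5, 21.2 and 25.8 CPM in the late mice, with no overlap and a log2 change of 3.18 ± 0.10 (adjusted p = 2.01e-12). Fkbp5, a co-chaperone that dampens the glucocorticoid receptor and is itself induced by it, went from 1.85, 2.14 and 2.70 CPM to 8.10, 16.4 and 19.1 CPM, a change of 2.80 ± 0.20 (adjusted p = 7.25e-06). Zbtb16, a zinc finger transcription factor and another glucocorticoid target, went from 0.340, 0.714 and 1.26 CPM to 2.61, 3.94 and 7.71 CPM, a change of 2.57 ± 0.34 (adjusted p = 0.00074). By the rule that chose them, none of the 16 genes of this group overlapped between early and late mice. Glul, glutamine synthetase, rose from 6.43, 10.2 and 16.5 CPM to 38.6, 52.6 and 103 CPM with late female 2 far above the rest, by 2.51 ± 0.27 (adjusted p = 0.000345). Sesn1, which restrains growth signalling through mTORC1, rose by 2.01 ± 0.15, and Upp2, a uridine phosphorylase, by 2.10 ± 0.25. Smim24, a small membrane protein, rose by 1.99 ± 0.17, and Arl5b, a small GTPase of the Golgi, by 1.99 ± 0.17. The adjusted p values of these 4 were 4.36e-06, 0.000316, 9.34e-06 and 1.95e-05.

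The falls were led by Alb, which encodes albumin and is described with the hepatocyte genes. Trim50, a ubiquitin ligase, went from 2.93, 5.63 and 7.59 CPM to 0.220, 1.02 and 1.75 CPM, a change of -2.58 ± 0.40 (adjusted p = 0.00313). Ranbp3l, a Ran-binding protein, went from 2.81, 3.36 and 4.16 CPM to 0.254, 0.647 and 1.14 CPM, a change of -2.45 ± 0.22 (adjusted p = 4.72e-06). Cdkn1a (chr17:29090976-29100727, plus strand), the p21 inhibitor of cyclin-dependent kinases and a REV-ERB target in mouse liver, went from 3.17, 7.08 and 10.5 CPM to 1.07, 1.26 and 2.01 CPM, a change of -2.36 ± 0.33 (adjusted p = 0.0014). All 6 early mice of each of these genes were above every late mouse. Aqp8, a water channel found in the apical membrane of acinar cells in rat, fell from 7.14, 9.77 and 13.5 CPM to 2.24, 2.69 and 3.29 CPM, by 1.83 ± 0.13 on the log2 scale (adjusted p = 5.12e-07). Ypel2 had a change of -1.47 ± 0.21 (adjusted p = 0.00132), Klhdc8a of -1.35 ± 0.18 (adjusted p = 0.000134) and Dtx1, a ubiquitin ligase that modulates Notch, of -1.31 ± 0.15 (adjusted p = 8.16e-05).

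**Figure D3:**
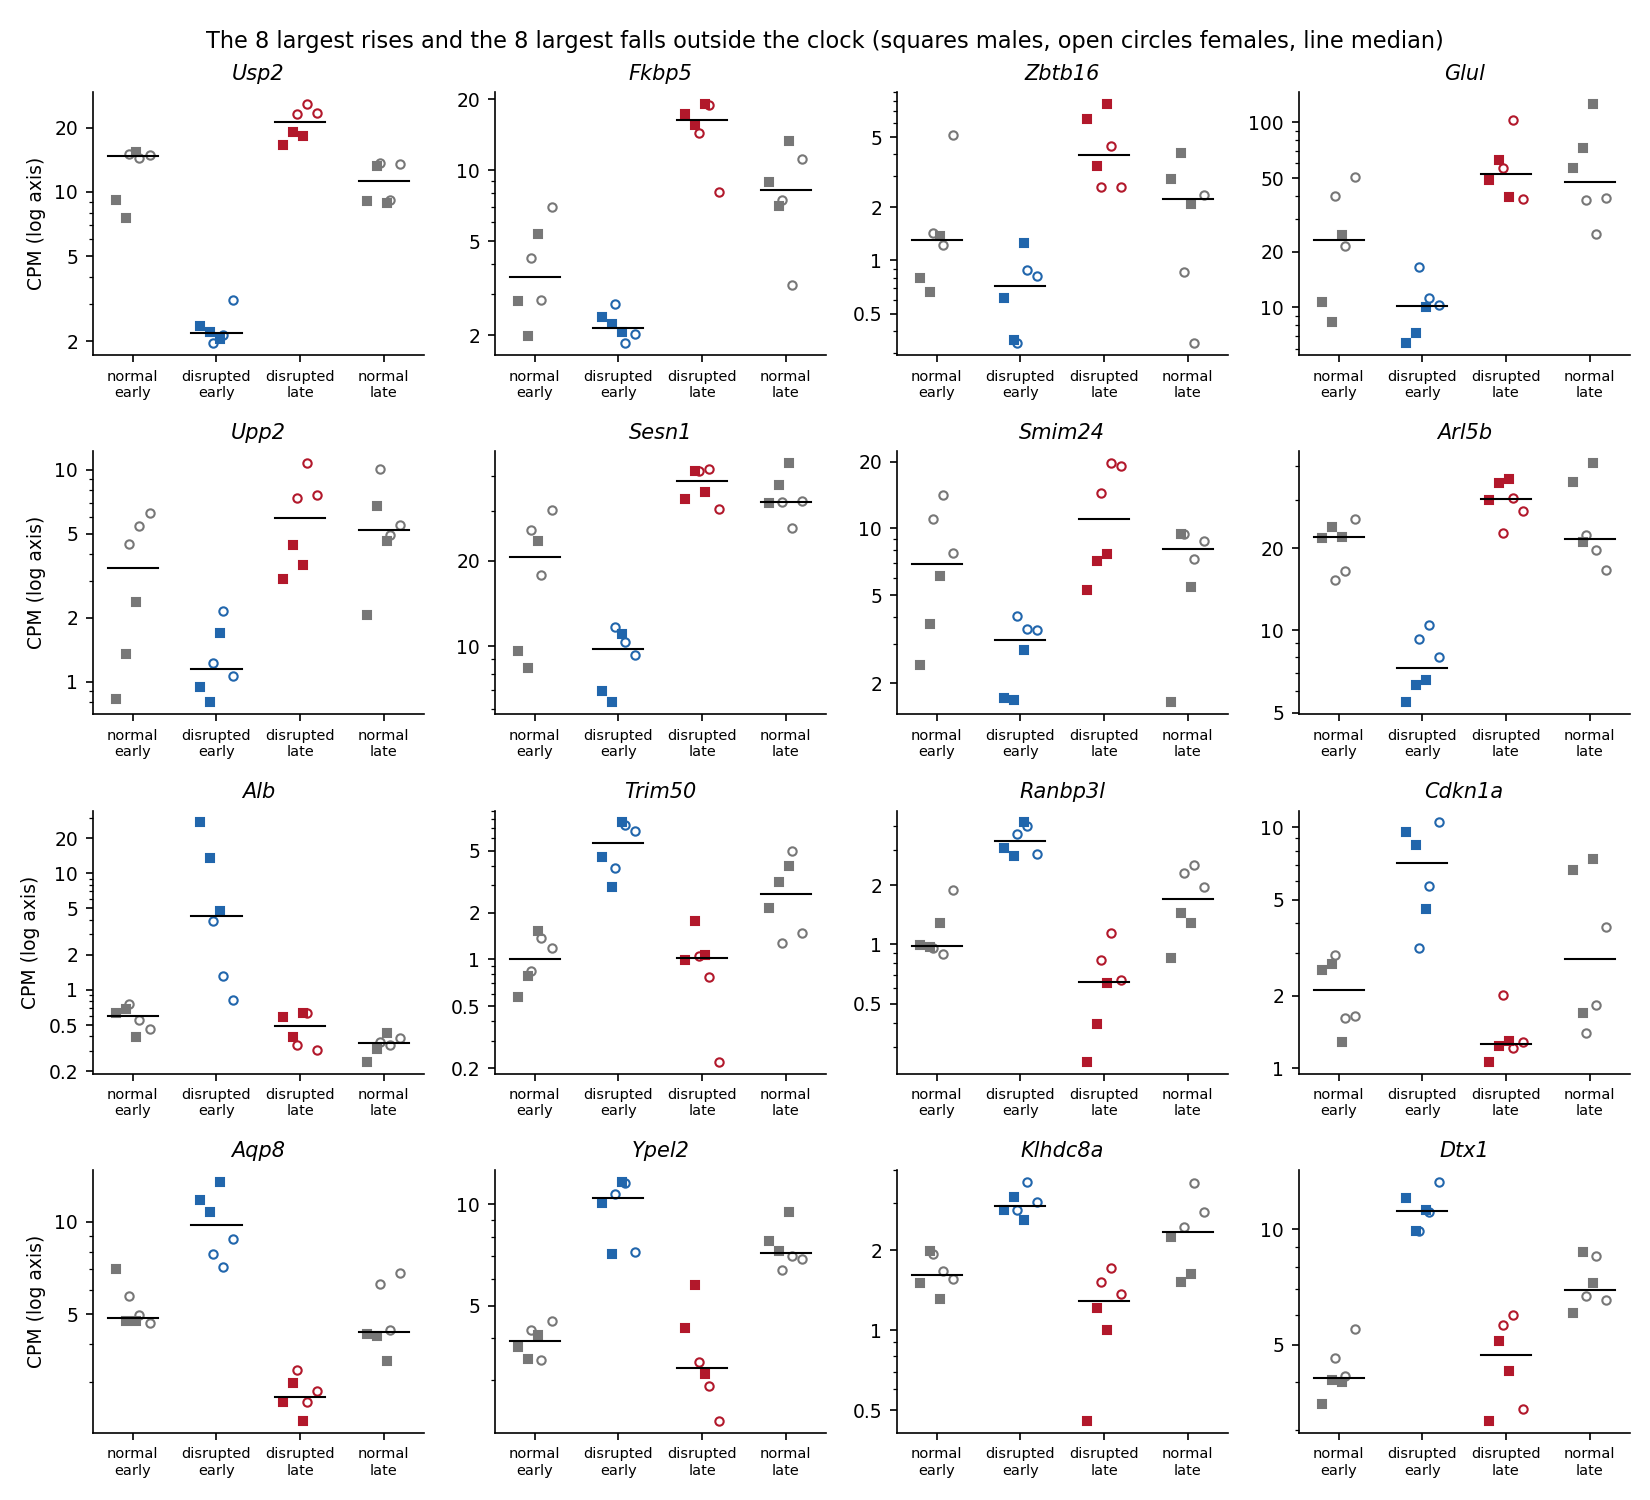
CPM in every mouse, on log axes, of the 8 rises and the 8 falls that the naming rule chose outside the clock lists, with squares for males, open circles for females and a line at each median. The rule asks that early and late disrupted mice do not overlap, and for Usp2 the 6 early ones sit between 1.96 and 3.11 CPM and the 6 late ones between 16.5 and 25.8 CPM.

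Clock-following genes of many tissues moved in both directions. Of 13 tested, 7 rose and 3 fell, 76.9% of the list against 9.89% of all genes tested. With 1 mouse left out 8 to 10 were called. Besides Usp2, Por, the electron donor of cytochrome P450 enzymes, rose from 4.56, 5.12 and 6.36 CPM to 12.1, 15.3 and 16.7 CPM, by 1.48 ± 0.08 (adjusted p = 2.88e-09). Coq10b rose by 1.66, Pim3, a kinase, by 1.17, Tspan4 by 0.95 and Wee1, a cell cycle kinase and E-box target, by 0.39. Cdkn1a, Rhobtb1 with a change of -1.004 and Dtx4 with -0.29 fell. Nampt, the rate-limiting enzyme of NAD salvage and a clock target in mouse liver, was at 4.24 CPM in early and 4.16 CPM in late mice at the median, and its change of 0.00 did not pass (adjusted p = 0.996).

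Of 14 tested genes known to respond to glucocorticoid, 8 rose and 1 fell, where 5.36% of all tested genes rose and 4.53% fell. The median change was 0.89, and 8 or 9 were called with any 1 mouse left out. In normal circadian mice the median of the same list was 0.54 and none was called. Tsc22d3, which encodes the anti-inflammatory protein GILZ, went from 6.34, 7.29 and 8.14 CPM to 13.5, 14.2 and 16.1 CPM with no overlap, a change of 0.98 ± 0.07 (adjusted p = 9.53e-08). Pdk4, a kinase that turns off pyruvate dehydrogenase in fasting, rose by 2.84 ± 0.39 from 0.223, 0.352 and 0.811 CPM to 0.950, 2.11 and 5.66 CPM (adjusted p = 0.000749). Errfi1 rose by 1.29, Klf9 by 1.01 and Sgk1 by 0.80, and Per1, Fkbp5 and Zbtb16 belong to this list as well. Cdkn1a fell. The metallothionein genes Mt1 and Mt2 had changes of 0.06 and 0.28 (adjusted p = 0.928 and 0.751), and Dusp1, Ddit4 and Nfkbia did not pass either.

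Genes of insulin, FOXO and growth signalling were called in 9 of 21, with 7 rises and 2 falls. That was 42.9% of the list, against 9.89% of all genes tested, and 7 to 9 were called with 1 mouse left out. Klf15, a transcription factor of the fasting response, went from 18.3, 23.4 and 26.8 CPM to 48.1, 53.6 and 62.1 CPM with no overlap, a change of 1.20 ± 0.08 (adjusted p = 6.42e-08). Foxo3 rose by 1.17, Trib1 by 0.49, Igf1r by 0.48 and Foxo1 by 0.33, while Irs1, which couples the insulin receptor to its kinase cascade, had a change of -0.61 and Sesn3 of -0.48. The list median was 0.05, and 16 of the 21 changes were positive. The summed level ran from 361 to 415 CPM early and from 447 to 491 CPM late. Among 16 p53 target genes 3 rose and 4 fell, 43.8% of the list. Plk2, a polo-like kinase, went from 37.7, 43.8 and 56.9 CPM to 17.3, 22.8 and 26.9 CPM, a change of -1.02 ± 0.11 (adjusted p = 5.52e-05), and Eda2r and Phlda3 had changes of -1.21 and -1.11 next to the rise of Sesn1.

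Immediate early genes split. Of 20 tested, 5 rose and 6 fell, 55% of the list against 9.89% of all genes tested, with a median of -0.14. Egr1, a zinc finger factor induced within minutes of stimulation, went from 1.93, 2.96 and 3.78 CPM to 0.436, 1.06 and 1.22 CPM, a change of -1.66 ± 0.23 (adjusted p = 0.000306), which was not called in the fit of all 24 mice (adjusted p = 0.144). Ccn1, a secreted matrix protein, had a change of -1.50 ± 0.27 (adjusted p = 0.0019). Both were separated between early and late mice. Fos had a change of -2.04 and Nr4a1 of -0.91, but Jun rose by 0.93, Klf6 by 0.95, Zfp36 by 0.73 and Jund by 0.69. The genes that rose and those that fell thus included members of the same AP-1 dimer, Jun and Fos.

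Among genes of protein folding, the share called was 14.3% in the disposal of misfolded proteins and 5.56% in chaperones and folding enzymes. It was 25% in stress sensors and factors, against 9.89% of all genes tested. Herpud1, which organises the disposal of misfolded proteins from the endoplasmic reticulum, rose from 87.8, 119 and 125 CPM to 211, 311 and 376 CPM with no overlap, by 1.37 ± 0.14 (adjusted p = 5.52e-05). Sel1l, its partner in the same complex, was at 455, 571 and 643 CPM and 445, 462 and 565 CPM, and its change of -0.23 ± 0.07 passed with all mice (adjusted p = 0.035) but with 1 mouse left out only without early male 2, early female 1 or late male 2. No other of the 14 genes of this disposal route was called. Of 18 chaperones and folding enzymes, Hyou1 alone rose, by 0.48 ± 0.11 (adjusted p = 0.0133). The count was 3 without early male 1, 2 without early female 3 or late female 1, and 4 with DESeq2. It was 0 without early female 1 and late female 1 together. The 12 stress sensors and factors of the unfolded protein response summed to 567 to 689 CPM early and 705 to 814 CPM late. Of the 12, 3 rose, with 2 to 4 called when 1 mouse was left out. They were Bhlha15, which encodes MIST1, a factor for the mature secretory state of acinar cells, from 150.1, 191 and 207 CPM to 215, 285 and 328 CPM, by 0.56 ± 0.10 (adjusted p = 0.0017), Ppp1r15a, which restarts translation after stress, by 0.45 ± 0.08 (adjusted p = 0.00136), and Ern1, which encodes the sensor IRE1, by 0.27.

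Targets of ATF4 and genes of amino acid metabolism rose in 10 of 24 and fell in none, with a median of 0.24. That was 41.7% of the list, against 9.89% of all genes tested. The count was 4 under upper quartile scaling and 5 without early female 1 and late female 1 together. It was 3 without the deepest libraries, early male 3 and late female 3. The count depended on single mice, with 4 called without late male 2 or late female 3, 5 without early male 3 or early female 1, and 6 without early female 2 or late female 2. Mthfd2, an enzyme of mitochondrial folate metabolism, went from 21.0, 25.2 and 31.9 CPM to 36.1, 39.2 and 42.3 CPM with no overlap, a change of 0.59 ± 0.08 (adjusted p = 0.000112). Slc7a5, an amino acid transporter, rose by 0.91 ± 0.16 (adjusted p = 0.00393) and Slc7a11, the cystine transporter, by 0.73. The 6 aminoacyl-tRNA synthetase genes called, Aars, Eprs, Cars, Yars, Sars and Mars, rose by 0.23 to 0.30.

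Heat shock and cold-inducible genes rose in 8 of 20, where 5.36% of all tested genes rose, and fell in none, with a median of 0.24. Only 2 were called without the deepest libraries, early male 3 and late female 3, and 5 without early male 3, late male 1 or late male 2 alone or with the lymphocyte and adipocyte scores as covariates. Stip1, a co-chaperone that links HSP70 to HSP90, went from 7.82, 9.95 and 10.6 CPM to 10.9, 13.5 and 14.7 CPM with no overlap, by 0.45 ± 0.09 (adjusted p = 0.00348). Hsph1 rose by 0.90, Hspa8 by 0.72 and Dnaja1 by 0.38 ± 0.08 (adjusted p = 0.00668). In ribosome biogenesis 4 of 30 genes rose and none fell, 13.3% of the list against 9.89% of all genes tested. The count was 7 without early male 2, 15 without both early males 1 and 2 and 2 without the deepest libraries. Ncl, nucleolin, rose by 0.36 ± 0.06 (adjusted p = 0.000998) and Rrp9 by 0.77 ± 0.12 (adjusted p = 0.000423), both without overlap. Of 77 cytosolic ribosomal protein genes, 3 fell and 1 rose, 5.19% of the list. Rpl14 had a change of -0.33 ± 0.07 (adjusted p = 0.0101), and 2 of the list were called without early male 1, early male 3, late male 3 or late female 3.

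The digestive enzyme genes, which fill most of each library, were nearly level. Of 36 tested, none rose and 2 fell, 5.56% of the list against 9.89% of all genes tested. The median change was 0.01, and 2 or 3 were called with 1 mouse left out. Pla2g1b, a secreted phospholipase, went from 1096, 1202 and 1322 CPM to 842, 866 and 935 CPM with no overlap, a change of -0.45 ± 0.06 (adjusted p = 5.77e-05), and it was at 1154 and 882 CPM at the median in early and late normal circadian mice. Ctrc, chymotrypsin C, had a change of -0.34 ± 0.08 (adjusted p = 0.0121). Cpa1, Ctrb1, Prss2 and Cela1 had changes of 0.02, 0.02, 0.02 and -0.04, none of which passed. The copies of amylase and of trypsin are near-identical and share reads by estimation, so their single values are uncertain. Of 9 acinar transcription factor genes, Bhlha15 and Nr5a2, by 0.37, rose, and Gata4 had a change of -0.39 ± 0.08 (adjusted p = 0.00623).

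Of 18 genes for secretagogue receptors and granule release, 2 were called, 11.1% of the list against 9.89% of all genes tested. Rab27b, a small GTPase of zymogen granule release, went from 11.4, 12.2 and 13.9 CPM to 7.15, 7.41 and 8.99 CPM with no overlap, a change of -0.70 ± 0.08 (adjusted p = 1.23e-05). Itpr3, a calcium channel of the acinar endoplasmic reticulum, had a change of 0.23 ± 0.07 (adjusted p = 0.0445) and, with 1 mouse left out, kept the call only without early male 1, late male 1 or late female 3. It was not called under upper quartile scaling either (adjusted p = 0.0865). In the Reg and injury list, Tff2, a trefoil peptide, had a change of -0.35 ± 0.07 (adjusted p = 0.00536), Sox9, a ductal factor that injured acinar cells also express, of -0.54 ± 0.13 (adjusted p = 0.0131), and Hamp2 of 0.35, and the other 11 of 14 were not called. None of 26 islet endocrine genes was called, where 9.89% of all genes were, with changes from -0.21 to 0.90 and a median of 0.30. Without late male 2 or without late female 1, 1 islet gene was called.

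In the stellate, endothelial and adipocyte lists every called gene was lower, but only the stellate share exceeded that of all genes. The median of 19 genes of stellate cells, fibroblasts and matrix was -0.26, and -0.15 in normal circadian mice. Of the 19, 8 fell and none rose, 42.1% of the list against 9.89% of all genes tested. That count was 9 without early male 1 and 6 without late male 1, and between 2 and 5 without any other single mouse, 2 of them without late female 2. The count was 1 without the deepest libraries, early male 3 and late female 3, and 3 without early female 1 and late female 1 together. With the lymphocyte and adipocyte scores as covariates 4 fell and 1 rose. Postn, a matrix protein of remodelling tissue, had a change of -0.77 ± 0.16 (adjusted p = 0.00577), and Col3a1, a fibrillar collagen, of -0.59 ± 0.14 (adjusted p = 0.0228), which was 0.0573 without late female 2. Their summed level was 293.6 to 467.9 CPM early and 268.3 to 371.8 CPM late. Kdr, a receptor for VEGF, was the only 1 of 13 endothelial genes called, 7.69% of the list against 9.89% of all genes tested. Kdr went from 11.4, 13.6 and 15.1 CPM to 8.64, 9.87 and 10.8 CPM, a change of -0.43 ± 0.08 (adjusted p = 0.00302). The endothelial count was 2 without early female 2 or late female 2. Lpl, lipoprotein lipase, was the only 1 of 13 adipocyte genes called, again 7.69% of the list. It went from 38.2, 41.1 and 50.05 CPM to 20.2, 23.9 and 28.2 CPM with no overlap, a change of -0.82 ± 0.08 (adjusted p = 2.5e-06), while the summed adipocyte genes, in which early female 1 was highest, ran from 65.2 to 180.0 CPM early and from 44.4 to 106.4 CPM late. Adipocyte calls were 2 without early female 1.

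None of 15 macrophage, 8 MHC class II or 20 lymphocyte genes was called, and the medians of these lists were -0.26, -0.46 and -0.81. In normal circadian mice the medians of the same lists were -0.27, -0.42 and -1.05. Without late male 1, 2 macrophage genes were called, and without early female 1, 1 was. Of 24 interferon response genes 2 fell, 8.33% of the list against 9.89% of all genes tested, and 4 were called without early female 2. The list median was -0.25 in normal circadian mice. Rsad2, an antiviral enzyme, had a change of -1.14 ± 0.23 (adjusted p = 0.00468) and Irf1 of -0.66 ± 0.14 (adjusted p = 0.00637), both with separated groups. Tnfaip3, which restrains NF-kappa B signalling, was the only 1 of 5 tested inflammation genes called, with a change of -1.17 ± 0.22 (adjusted p = 0.00222). The summed lymphocyte genes ran from 21.95 to 185.2 CPM early and from 5.68 to 72.04 CPM late. Each score averages the genes of its own list, so the lymphocyte score as a covariate moves the lymphocyte median towards 0 by construction. With the lymphocyte and adipocyte scores as covariates the medians were 0.11 for lymphocyte, -0.04 for MHC class II and -0.13 for interferon response genes, in place of -0.81, -0.46 and -0.32. Without early female 1 and late female 1 they were -0.43, -0.19 and -0.20.

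Genes of hepatocyte proteins were higher in some early mice. Alb was at 27.3, 13.5 and 4.78 CPM in early males 1, 2 and 3 and at 3.90, 1.33 and 0.815 CPM in early females 1, 2 and 3. In late mice Alb ran from 0.305 to 0.638 CPM, below every early mouse, and its log2 change was -3.88 ± 0.74 (adjusted p = 0.0105). Of 22 listed genes 15 passed the low-count filter, and those that passed through the early mice alone had to differ. Of the 15, 6 fell and none rose, 40% of the list against 9.89% of all genes tested. The count was 6 without early male 1, 5 without early male 2, and 10 to 14 without any other single mouse. With DESeq2 10 of 15 fell, and without the deepest libraries, early male 3 and late female 3, 10 of 19. Alb was not called in males or females alone (adjusted p = 0.0841 and 0.146). Ahsg and Serpina1b, which encode further secretory proteins of the liver, reached 3.14 and 1.70 CPM at the highest in early mice and had a median of 0 in late mice, and the defining marker Apoa1 was at 0 in every late mouse. The summed list was 72.96, 47.89 and 30.18 CPM in the early males and 49.16, 21.11 and 19.08 CPM in the early females, against 11.55 to 36.64 CPM in late mice and 11.19 to 30.11 CPM in normal circadian mice. Where this RNA came from was not tested.

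Cell cycle and DNA replication genes had a median change of -1.01 over 31 tested, and 4 fell, 12.9% of the list against 9.89% of all genes tested. None of 33 was called without the deepest libraries, early male 3 and late female 3, and 12 of 31 were with DESeq2. The count was 12 without early female 2 and 7 without late female 1, and 2 without early male 1, early male 2, early female 1, early female 3, late female 2 or late female 3. Rrm2, a subunit of ribonucleotide reductase, had a change of -0.78 ± 0.17 (adjusted p = 0.00784). Cdc20, an activator of the anaphase-promoting complex, had a change of -1.87 ± 0.44 (adjusted p = 0.0124) between low levels of 0.182, 0.462 and 1.20 CPM and 0.0848, 0.126 and 0.288 CPM. Both overlapped between early and late mice. Cdc20 passed the low-count filter through the early mice, so a fall was favoured by the filter.

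Lipid synthesis genes were lower where they were called, and 9.89% of all genes tested were called. Of 22 cholesterol synthesis and uptake genes 6 fell and none rose, 27.3% of the list, with a median of -0.28. The count was 2 without early male 1 or late female 1 and 3 without early female 3. It was 2 without the deepest libraries and 2 without early female 1 and late female 1 together. Dhcr7, the last enzyme of cholesterol synthesis, went from 3.53, 4.56 and 5.12 CPM to 2.46, 2.73 and 3.26 CPM with no overlap, a change of -0.67 ± 0.10 (adjusted p = 0.000314), and Fdps had a change of -0.62 ± 0.15 (adjusted p = 0.0155). Of 17 genes for fatty acid synthesis, desaturation and elongation, 2 fell, 11.8% of the list. The list median of -0.64 was -0.20 without early female 1 and late female 1. It was -0.26 with the lymphocyte and adipocyte scores as covariates. Elovl5 fell by 0.64 ± 0.10 (adjusted p = 0.000742). Scd2, a desaturase, had a change of -0.96 ± 0.25 (adjusted p = 0.0428) and kept its call in 2 of 12 fits with 1 mouse left out, those without early male 2 and without late male 3. Of 21 genes for fatty acid oxidation, Pdk4 alone was called, 4.76% of the list, and 2 were called without early female 3.

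Further lists held a few called genes each, where 9.89% of all genes tested were called. The share was 13.0% in autophagy, 22.2% in the antioxidant list, 26.7% among Notch and Id genes, 16.7% among cancer drivers and 7.14% among NAD salvage genes and sirtuins. In autophagy 3 of 23 rose, among them Bnip3 by 0.55 ± 0.07 (adjusted p = 0.000129) and Ulk1, the kinase that starts the process, by 0.48 ± 0.08 (adjusted p = 0.00067). In the antioxidant list 3 of 18 rose and 1 fell, and the count was 3 without early female 1, late male 3 or late female 1, 1 without early male 1, late male 1 or late female 2, and 2 without any other mouse. Nfe2l2, which encodes the regulator NRF2, rose by 0.29 ± 0.08 (adjusted p = 0.0252) but lost the call without early male 1, early male 2, early female 3, late male 1, late male 2 or late female 2. Txn1, thioredoxin, had a change of -0.42 ± 0.06 (adjusted p = 0.000422). Among Notch and Id genes Id1 rose by 0.90 ± 0.22 (adjusted p = 0.0147) and Heyl had a change of -0.43 ± 0.09 (adjusted p = 0.00667). Id2 and Hes6 were the only others of 15 called, with -0.62 and 0.39. The count was 2 without early female 1, late male 3 or late female 2, and 1 without the deepest libraries, early male 3 and late female 3. Of 18 pancreatic cancer driver genes, Kmt2d, a histone methyltransferase, rose by 0.51 ± 0.06 (adjusted p = 4.8e-05), Stk11 by 0.23, and Gnas had a change of -0.24 ± 0.06 (adjusted p = 0.0145). Of 14 NAD salvage genes and sirtuins, Sirt1, a deacetylase that acts on the clock, rose by 0.39 ± 0.11 (adjusted p = 0.0339), and with 1 mouse left out kept the call only without early male 3, early female 1, late male 1 or late female 3. Kmt2d had a change of 0.54 ± 0.09 in normal circadian mice too (adjusted p = 0.0235).

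None of 31 proteasome genes, 13 mitochondrially encoded genes, 6 red blood cell genes or 5 smooth muscle genes was called. Without early female 3, 1 proteasome gene was called, and with the lymphocyte and adipocyte scores as covariates 3 smooth muscle genes rose and 1 mitochondrially encoded gene fell. Of 52 nuclear respiratory chain genes 2 fell and none rose, 3.85% of the list against 9.89% of all genes tested. These were Atp5g1, with a change of -0.44 ± 0.07 (adjusted p = 0.000521), and Atp5e, with -0.29 ± 0.08 (adjusted p = 0.0253), which lost the call without early male 1, early male 3, any 1 late male or late female 2, and 1 of the list was called without the deepest libraries.

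**Figure D4:**
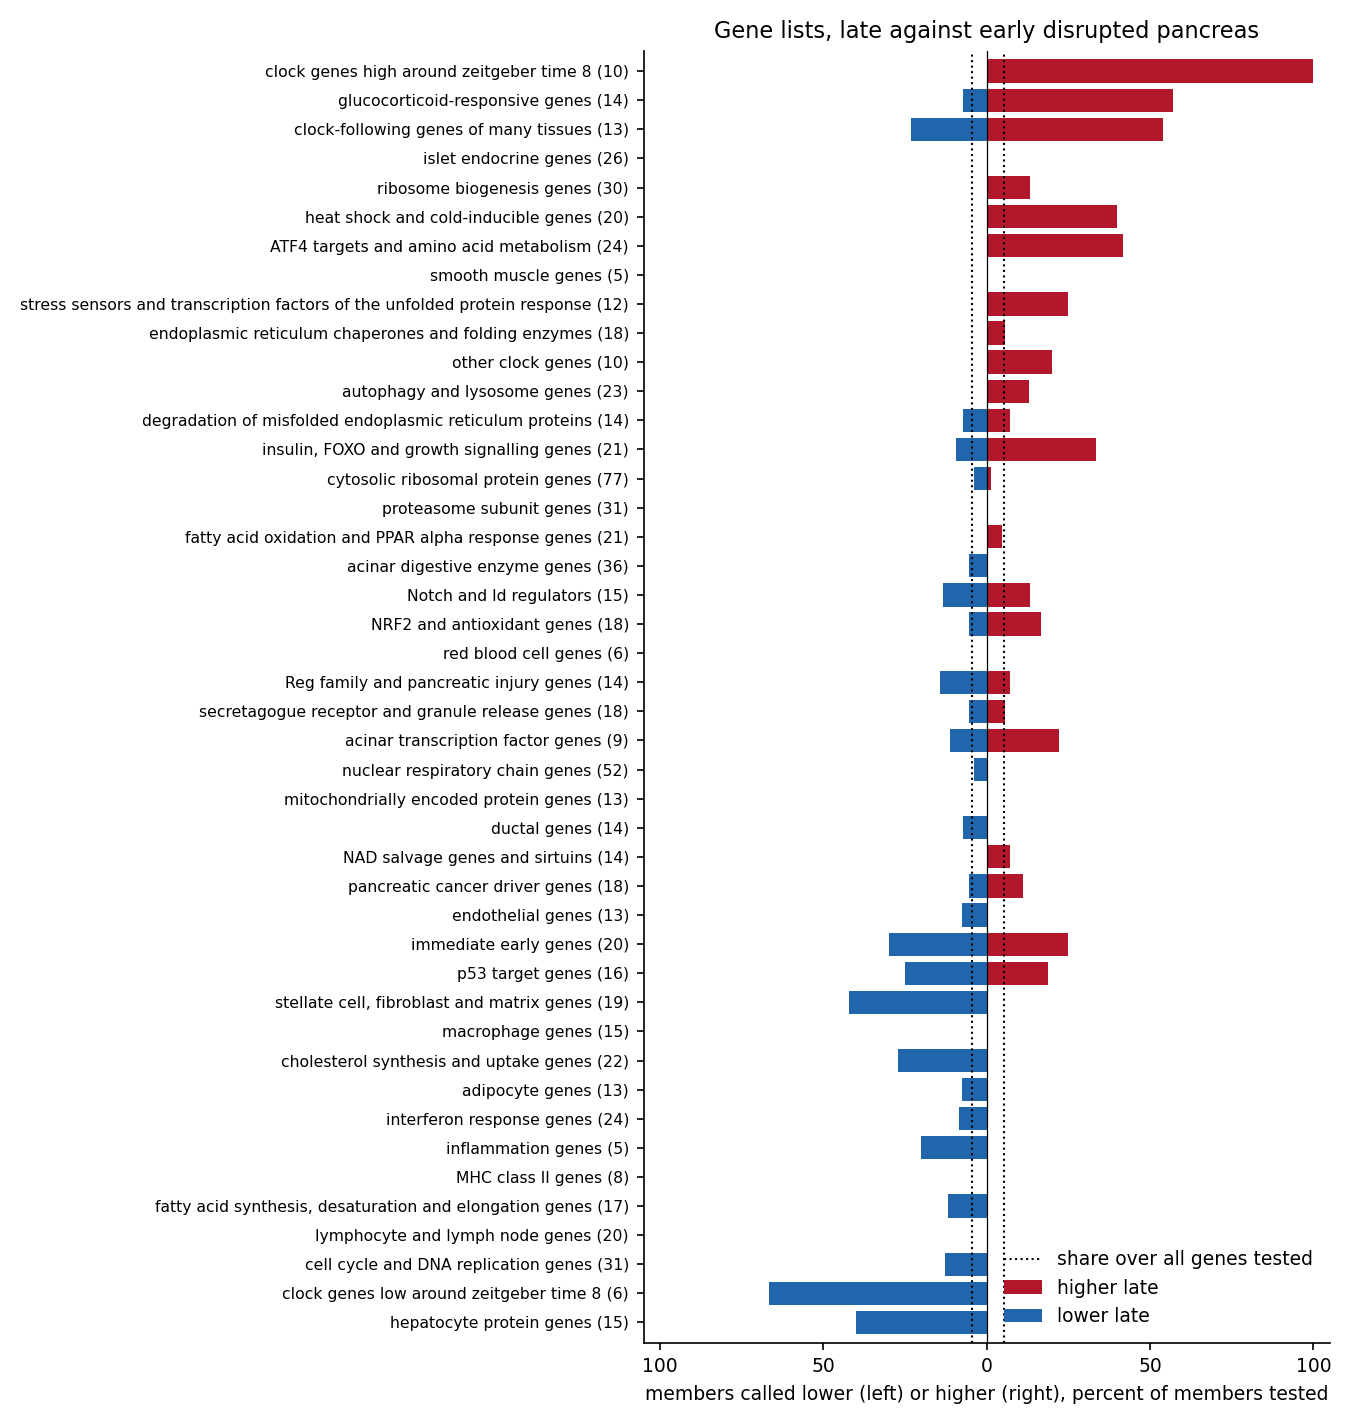
For each gene list, the bars give the share of tested members that were called higher in late disrupted mice to the right and lower to the left, in percent. Clock genes high around zeitgeber time 8 reach 100% to the right, where 5.36% of all genes tested were called higher, and several lists, such as islet and proteasome genes, have no bar.

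Males and females were then fitted apart, with no mouse in common. In males 940 of 12987 genes were called (7.24%), with 486 higher (3.74%) and 454 lower (3.50%). In females 705 of 13179 were called (5.35%), with 342 higher (2.60%) and 363 lower (2.75%). Among 12769 genes tested in both, 235 were called in both and 229 of these, 97.4%, had the same direction. Of 931 genes called in males, 742 had the same direction in females (79.7%), and of 694 called in females, 581 had it in males (83.7%), against 58.6% of all genes tested in both. Of the clock genes called in all disrupted mice, all but Nr1d1, Nr1d2 and Clock were called in each sex. Nr1d1 was called in neither (adjusted p = 0.234 in males and 0.102 in females), and Nr1d2 and Clock were not called in males (adjusted p = 0.0525 and 0.0592). Dbp changed by 5.30 ± 0.14 in males and 6.15 ± 0.29 in females, Per3 by 3.65 ± 0.12 and 3.46 ± 0.15, Arntl by -4.80 ± 0.25 and -5.75 ± 0.40 and Usp2 by 3.02 ± 0.11 and 3.32 ± 0.15, on the log2 scale. Xist, the RNA that silences an X chromosome in females, ran from 74.4 to 95.1 CPM in early females and from 52.8 to 65.2 CPM in late females, a change of -0.54 ± 0.11 in females, and was at most 0.0834 CPM in males.

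The difference between females and males in the late minus early change was tested as an interaction of sex and time. It was called for 93 of 13705 genes (0.679%), with 35 higher in females (0.255%) and 58 lower (0.423%), and since late females and males came from different days, sex and day cannot be told apart in it. The count was 3 without late male 3, 4 without late female 2, 10 without early male 2, 13 without late male 1, 23 without early female 2, 26 without early male 1, 42 without early female 3 and 53 without late male 2. Ifrd1, an interferon-related developmental regulator, was at 69.4, 72.6 and 80.6 CPM in early males and 30.6, 39.5 and 38.3 CPM in late males, but at 64.1, 63.4 and 68.4 CPM in early females and 79.9, 101 and 82.6 CPM in late females. Late males were below every early male and late females above every early female, and the changes differed by 1.47 ± 0.15 (adjusted p = 0.000495). Zfp871, a zinc finger gene, changed by 1.29 ± 0.24 in males and -1.58 ± 0.25 in females, a difference of -2.85 ± 0.37 (adjusted p = 0.00539). Scml4 changed by -1.83 ± 0.18 and -0.27 ± 0.10 (adjusted p of the difference = 0.00793), and Hist1h1c, a linker histone, by -1.81 ± 0.19 and 0.13 ± 0.13 (adjusted p of the difference = 0.0156). Scara5, a ferritin receptor, changed by 0.90 ± 0.14 and -0.40 ± 0.14 (adjusted p of the difference = 0.0156), and 1810019D21Rik by -0.14 ± 0.10 and -1.18 ± 0.12 (adjusted p of the difference = 0.0156). Of the clock genes, the difference was called for Bhlhe40 alone, with 1.75 ± 0.12 in males and 0.91 ± 0.12 in females (adjusted p of the difference = 0.0332).

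Days passing without disruption gave a far shorter list. In normal circadian mice, tested in the same way, 42 of 13399 genes were called (0.313%), with 19 higher (0.142%) and 23 lower (0.172%), and 1726 had an unadjusted p under 0.05, against 3383 in disrupted mice. The 42 became 14 without early male 3 and 18 to 24 without early male 1, early male 2, early female 1, early female 2, late male 2, late male 3 or late female 1 of the normal circadian mice. DESeq2 with its own size factors called 166, of which 101 were higher and 65 lower. Per2 had a change of -0.61 ± 0.11 there (adjusted p = 0.0235), opposite to its rise in disrupted mice, and so had Arntl with 1.49 ± 0.31 (adjusted p = 0.045), Ypel2 with 0.92 ± 0.10 (adjusted p = 0.000302) and Dtx1 with 0.76 ± 0.11 (adjusted p = 0.00565). Dbp, Per1 and Cdkn1a had changes of -0.82 ± 0.25, 0.18 ± 0.14 and 0.75 ± 0.45, none of which passed. Over the 13272 genes tested in both conditions, 56.1% changed in the same direction, and of the 1337 called in disrupted mice 58.6% did. Only 19 were called in both, 1.42% of the 1337 and 45.2% of the 42, and 9 of the 19 had the same direction. The 2 sets of changes share no mouse, and across these 13272 genes, which are not independent, their Pearson correlation was 0.175.

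The difference of the late minus early change between the conditions was called for 668 of 14000 genes (4.77%), with 324 more positive in disrupted mice (2.31%) and 344 more negative (2.46%), and for 525 to 717 with any 1 mouse left out. Of the 1337 genes called in disrupted mice and tested in both conditions, the difference was called for 490 and not called for 847. The difference uses the same disrupted mice, so its values stand beside those already given and add no independent support. The difference was 6.55 ± 0.36 for Dbp, -6.76 ± 0.40 for Arntl, 4.28 ± 0.22 for Per3, 3.34 ± 0.23 for Usp2 and -3.10 ± 0.57 for Cdkn1a (adjusted p = 5.84e-09, 3.28e-10, 3.49e-10, 2.46e-08 and 0.00342). Of the genes responsive to glucocorticoid, Fkbp5 had a change of 1.07 ± 0.40 in normal circadian mice (adjusted p = 0.316) and a difference of 1.71 ± 0.46 (adjusted p = 0.0423), Zbtb16 a difference of 2.27 ± 0.67 (adjusted p = 0.0636), Pdk4 of 0.97 ± 0.82 (adjusted p = 0.612) and Glul of 1.31 ± 0.46 (adjusted p = 0.125). For Pla2g1b and Tff2 the changes in normal circadian mice were -0.35 ± 0.08 and -0.34 ± 0.07, and the differences of -0.11 ± 0.10 and -0.02 ± 0.09 did not pass (adjusted p = 0.655 and 0.958).

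**Figure D5:**
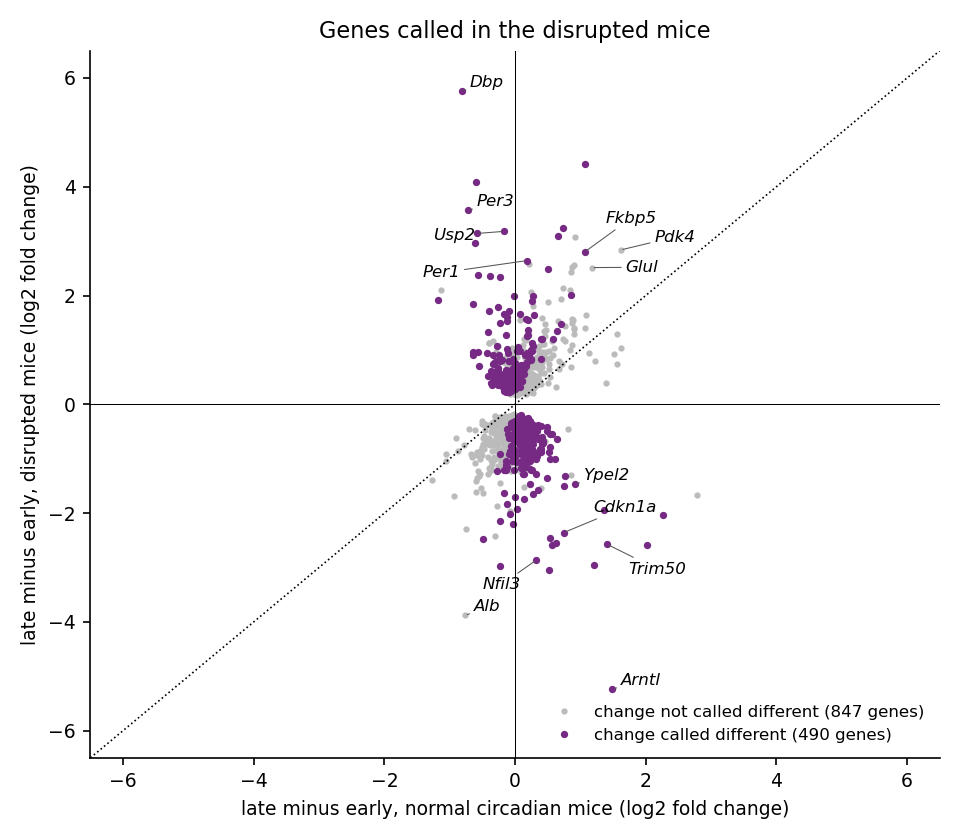
Each point is 1 of the 1337 genes called in disrupted mice and tested in both conditions, with its late minus early log2 fold change in normal circadian mice on the horizontal axis and in disrupted mice on the vertical axis, coloured by whether the 2 changes were called different. The genes were chosen by their call in disrupted mice, so a wider spread along the vertical axis was given by that choice. Dbp at 5.75 against -0.82 and Arntl at -5.24 against 1.49 lie in opposite corners.

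The levels were last set against the range of the 12 normal circadian mice, as a description, since the genes were called on these same levels. The median of the 6 early disrupted mice lay outside that range for 446 of the 1356 called genes (32.9%), and that of the late mice for 237 (17.5%). Over all genes tested the shares were 7.52% and 4.87%. For genes higher in late mice the shares were 34.4% early and 18.8% late, and for genes lower in late mice 31.1% and 15.9%. In 385 called genes the early median was outside the normal range and the late median inside, against 918 of all 13705 genes tested. The opposite pattern, early inside and late outside, held in 176 called genes, against 556 of all genes tested. Both medians were inside in 734 called genes and both outside in 61. Usp2, Fkbp5 and Lpl are given as single genes. Usp2 had medians of 14.7 and 11.2 CPM in early and late normal circadian mice, against 2.18 and 21.2 CPM in disrupted mice. For Fkbp5 they were 3.52 and 8.21 CPM, against 2.14 and 16.4 CPM, and for Lpl 30.0 and 32.1 CPM, against 41.1 and 23.9 CPM.

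Last, the promoter windows of all called genes were read for the same elements, as a description of letters. A gene with several start sites had several windows and counted when any of them held the element. The E-box CACGTG was in 113 of 576 genes with a window that were higher in late mice (19.6%). It was in 58 of 471 such genes lower in late mice (12.3%), in 11.7% of all tested genes with a window and in 8.09% of all 27025 genes with a window. The D-box was in 8 higher genes (1.39%) and 3 lower genes (0.637%), against 0.8% of tested genes. The ROR element was in 8 higher genes (1.39%) and 14 lower genes (2.97%), against 2.31% of tested genes. Arntl and Nfil3, both printed above with this element, were among the lower genes, and Ciart, Per1 and Tef, printed with the E-box, among the higher ones.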

How the data were processed

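RNA-seq was available for pancreas in 24 samples, 1 library each. Per the labels' protocols, RNA came from a modified column kit and libraries from a TruSeq kit. The authors deposited RSEM expected counts per Ensembl gene, without normalization. The submitters' processing notes name bcl2fastq 2.20, STAR 2.5.3a, RSEM, edgeR 3.28.0 and build GRCm38.p5, while the annotation used for counting and its strand setting were not given in the sources used here. Columns were matched to mice by the sample name in the labels. The labels number the samples without stating that each is a separate animal. Each is called a mouse here, and p-values measure the spread between these samples, which may be partly technical.

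Expected counts were rounded (7.97% of values, by at most 0.5), filtered with filterByExpr, scaled with TMM (factors 0.946 to 1.08 in the disrupted mice) and tested in edgeR 4.0.16 (R 4.3.3) by robust quasi-likelihood F tests, with a sex block, Benjamini-Hochberg adjustment and a threshold of 0.05. Log2 fold changes carry the standard error implied by the F statistic, and levels are CPM with TMM factors over all 24 mice, which compare mice and not genes. A CPM value allows no comparison of 2 genes, since gene length is not divided out. The biological coefficient of variation common to all genes was 0.151. The test was checked on simulated data. Symbols came from GENCODE M21 on GRCm38, which matched 51719 of 51912 genes, and promoters from RefSeq (GRCm38.p6).

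The 45 lists hold 916 genes, 845 of them tested. Named by rule are all measured clock genes, the 8 largest rises and 8 largest falls outside the clock among called genes with mean log2 CPM of at least 1, no overlap and a symbol that is no Gm or Rik model, up to 2 called members per other list with the smallest p, and 3 genes per direction of the sex difference. A few genes of this rule are not reported here. Further list members with values in the text were chosen after their values were seen. The members and lists were chosen with earlier results of these data known. Replicate numbers were not treated as pairing mice. Alternatives were upper quartile scaling, DESeq2 1.42.0, no filter, other designs and leaving out libraries. Leaving out early males 1 and 2 was added after seeing the data.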

Additional observations from a re-analysis of the deposited data

Results flagged for a closer look

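Single mice lay far from the others of their group in 20 of 220 groups of 6 values checked, by a gap to the next mouse that took up most of the range of the group, and chance alone marks about 1 in 20 such groups. Among the early disrupted mice, female 1 was highest for Per3 at 1.91 CPM, Bhlhe41 at 0.576 CPM and Pdk4 at 0.811 CPM. Early male 2 was highest for Ciart at 0.800 CPM, early female 2 for Clock at 22.8 CPM, early female 3 for Usp2 at 3.11 CPM and early male 1 for Ahsg at 3.14 CPM. Among the late disrupted mice, female 2 was highest for Glul at 103 CPM, Rab27b at 8.99 CPM and Serpina1b at 0.0336 CPM, and female 1 for Cdkn1a at 2.01 CPM and Heyl at 5.01 CPM. Late male 2 was highest for Npas2 at 0.0907 CPM, late male 3 for Cdc20 at 0.288 CPM and late female 3 for Arntl2 at 5.70 CPM. Early and late disrupted mice overlapped for Ahsg, Serpina1b, Heyl, Cdc20 and Arntl2 and did not overlap for the other genes of these single values.

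The same check marked early female 1 for its summed lymphocyte genes at 185.2 CPM, adipocyte genes at 180.0 CPM and macrophage genes at 132.5 CPM. It marked early male 3 and late female 3 for total counts of 59811012 and 62390408. The part of these libraries in single results was not tested beyond the fits that left them out.

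The late minus early change differed between disrupted and normal circadian mice, by the interaction test in edgeR, for 52 of the named genes. On the log2 scale, disrupted minus normal, it was more positive for the clock genes Dbp at 6.55, Ciart at 4.68, Per3 at 4.28, Bhlhe41 at 3.76, Per2 at 3.58, Hlf at 2.92, Tef at 2.73, Nr1d2 at 2.57, Per1 at 2.47, Bhlhe40 at 1.74, Nr1d1 at 1.65 and Cry2 at 1.34, and more negative for Arntl at -6.76, Npas2 at -5.04, Nfil3 at -3.20 and Clock at -0.92. Outside the clock it was more positive for Usp2 at 3.34, Smim24 at 1.92, Arl5b at 1.72, Fkbp5 at 1.71, Id1 at 1.24, Herpud1 at 1.17, Slc7a5 at 1.16, Sesn1 at 1.13, Klf15 at 0.79, Por at 0.77, Rrp9 at 0.77, Tsc22d3 at 0.72, Hyou1 at 0.61, Mthfd2 at 0.58, Bnip3 at 0.57, Stip1 at 0.44 and Ncl at 0.42. It was more negative for Trim50 at -4.05, Cdkn1a at -3.10, Ranbp3l at -3.03, Ypel2 at -2.41, Dtx1 at -2.09, Ccn1 at -1.99, Klhdc8a at -1.85, Aqp8 at -1.70, Tnfaip3 at -1.24, Scd2 at -1.23, Scml4 at -1.04, Lpl at -0.94, Rab27b at -0.80, 1810019D21Rik at -0.70, Dhcr7 at -0.68, Sox9 at -0.62, Elovl5 at -0.61, Heyl at -0.59 and Txn1 at -0.53. These differences rest on the same disrupted mice as the changes themselves.

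Between the sexes, the change differed by the interaction test for 8 named genes, given as female minus male on the log2 scale. It was more positive in females for Hist1h1c at 1.94, Scml4 at 1.57 and Ifrd1 at 1.47, and more negative for Zfp871 at -2.85, Scara5 at -1.30, 1810019D21Rik at -1.03, Arl5b at -0.91 and Bhlhe40 at -0.84. Late females were taken on day 8 and late males on day 9, so sex and day cannot be told apart.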

How the results depend on the processing

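The number of genes called between late and early disrupted mice was 1354 under upper quartile scaling, 1511 with DESeq2, 1270 with no filter and 1208 with no sex block. It was 1948 in a fit of all 24 mice, 1161 without early female 1 and late female 1, and 1133 without early males 1 and 2. With lymphocyte and adipocyte scores as covariates it was 1059. With 1 mouse left out it was 1019 to 1283, when 515 to 677 were higher and 475 to 608 lower. It was 815 without the deepest libraries (466 higher, 349 lower), 705 in females alone (342 higher, 363 lower) and 940 in males alone (486 higher). Fits on fewer mice have less power by construction. In normal circadian mice the count was 166 with DESeq2, 110 with no filter, 118 in the fit of all 24 mice and 14 to 57 with 1 mouse left out. For the sex difference it was 241 with DESeq2, 211 with no filter and 3 to 87 with 1 mouse left out. The condition difference gave 692, 756 and 756 under upper quartile scaling, DESeq2 and no filter, and 525 to 717 with 1 mouse left out.

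Same-numbered early and late mice had correlated deviations of -0.061 to 0.422 in disrupted and -0.082 to 0.098 in normal circadian mice, and not every mouse correlated best with its own number, so the numbers were not taken to pair mice. With a replicate block the counts were 1228 in disrupted mice (638 higher, 590 lower), 13 in normal circadian mice and 711 for the condition difference. Of 87 named genes called, 41 were called in each of 24 alternatives and 79 with any 1 mouse left out. Sel1l, Itpr3, Scd2, Sirt1, 1810019D21Rik, Atp5e and Nfe2l2 lost the call in 6 to 10 of the 12 fits that left out 1 mouse, and several of them also under the settings below. Of the others, Clock and Col3a1 lost the call with the replicate block or no filter, and Clock, Sox9, Col3a1, Rrm2, Cdc20, Fdps, Dnaja1, Heyl, Id1 and Gnas lost it without the deepest libraries. Nr1d1 lost it with the covariates, and Nr1d1, Alb, Fdps, Sox9, Itpr3, Nfe2l2, Scd2, Sel1l and Sirt1 in each sex alone. Egr1 (adjusted p = 0.144), Dnaja1 and Xist lost it in the fit of all 24 mice. Ctrc, Gata4, Rpl14 and Gnas lost it without early males 1 and 2, and Clock, Hyou1 and Col3a1 without early female 1 and late female 1 together. The sign turned for Ifrd1 in females alone (0.42, against -0.30) and for Zfp871 in males alone (1.29, against -0.02). The causes were not tested. Depth limits the genes near 0, where fitted fold changes rest on a few counts.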

Other observations

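Outside the named genes, Nnt, which encodes the mitochondrial nicotinamide nucleotide transhydrogenase and carries a known deletion in the C57BL/6J strain, was looked at after its values were seen. It ran from 0.296 to 2.80 CPM in early disrupted mice and from 2.36 to 6.41 CPM in late ones, a log2 change of 1.56 ± 0.42 with overlap (edgeR adjusted p = 0.0449). In normal circadian mice it ran from 0.106 to 6.63 CPM early and from 0.237 to 4.61 CPM late, with a change of 0.07 ± 0.85 (adjusted p = 0.984), and the difference between the conditions did not pass (adjusted p = 0.487).

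The trypsin gene Prss3, also chosen after its values were seen, was at 3066 CPM in late female 3 and 1695 CPM in late female 2 of the disrupted mice and at 3676 CPM in early male 2 of the normal circadian mice, and between 152.8 and 837.4 CPM in the other 21 mice. The mitochondrial gene mt-Co3 was at 0.0824 to 0.122 CPM in 11 mice and at 15.2 to 83.8 CPM in the other 13. Of the 11, 8 were normal circadian mice, 5 of them late. Trypsin copies are near-identical and share reads by estimation.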
